A study of Homo sapiens with 4 samples.

Results

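NCI-H929 (H929) and KMS28BM are established human multiple myeloma lines, each grown from the malignant plasma cells of 1 patient, and the genes that set them apart from each other are described here. Genes were compared between lines within each sorting state, and 12294 of the 60612 listed genes reached 1 FPKM (fragments scaled to transcript length and to the size of the library) in at least 1 library. Among these, 8565 genes (69.7%) differed in the same direction in both states: 4755 were higher in H929 than in KMS28BM and 3810 were lower. The lines differed in opposite directions in 3706 genes, and 23 had the same value in both lines in a state. At the edge of the expression limit, AC021087 entered with a highest library of 1.0003 FPKM, while NAGS, at 0.999971 FPKM, did not.

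There were 4 libraries: H929 after sorting, H929 before sorting, KMS28BM after sorting and KMS28BM before sorting, where sorting means passage through a microfluidic chip. No genetic change or drug is given for either line, and no line has a second library in the same state. The series title seems to name the libraries the other way round for sorting, a doubt that leaves the comparison of lines within a state unaffected. The line names are those of the labels. The libraries labelled H929 hold the IgA and kappa transcripts known from that line but under 1 FPKM of FGFR3, for which it is also known, so the identity of the lines may need checking, and every line value here rests on the labels. Throughout, each pair of values gives the library labelled after sorting first and the library labelled before sorting second.

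A plasma cell makes 1 kind of antibody, with 1 heavy chain class and either the kappa or the lambda light chain. Myeloma keeps that choice, so the antibody genes act as a clonal tag. Myelomas are commonly grouped by early chromosome translocations that place an oncogene beside the immunoglobulin heavy chain locus, among them the receptor tyrosine kinase FGFR3 with the histone methyltransferase NSD2, the transcription factor MAF, and the D cyclins. Later events include loss of CDK inhibitors and of regulators of NF-kB. The bone marrow niche adds signals through interleukin 6, adhesion molecules and NF-kB. Interferon-stimulated genes, most of them antiviral, and the HLA genes, which present peptides to T cells, are held at different levels in different tumours.

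Between 9303 and 10782 genes reached 1 FPKM per library, and the depth, read from the step size of low FPKM values, lay between 21.2 and 24.8 M fragments (M for mega), so that 1 FPKM on a transcript of 2000 bases stood for 42.3 to 49.6 fragments. Immunoglobulin genes held between 4.01% and 6.84% of the summed FPKM and mitochondrial genes between 20.1% and 26.0%. The 10 plasma cell markers reached 1 FPKM in all 4 libraries. Markers of other cell types were mostly below that level: 1 of 5 B cell markers (BCL6, at most 1.28 FPKM), 2 of 6 T and NK cell markers (GNLY and GZMB, at most 1.87 FPKM), 1 of 5 monocyte markers (CD68), 1 of 6 stroma markers (PDGFRB) and 2 of 5 epithelium markers (KRT8 and KRT18) reached 1 FPKM in any library, and none of the 4 erythroid, 4 neutrophil or 3 endothelium markers did. CD68, a lysosomal protein whose transcript words overlap those of other genes by 74.3%, had 11.4 and 10.8 FPKM in H929, against 1.77 and 1.87 FPKM in KMS28BM. KRT8, a keratin, had 1.76 and 2.22 FPKM in H929, against 0.0398 and 0.0199 FPKM in KMS28BM. KRT18 ran the other way with 0.298 and 0.316 FPKM in H929, against 1.23 and 2.22 FPKM in KMS28BM. PDGFRB, a growth factor receptor of stroma, had 1.98 and 2.21 FPKM in H929, against 0.0239 and 0.00662 FPKM in KMS28BM. The part of such cells in the line differences was not tested.

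A gene is called when limma gave, in a model of log2(FPKM + 1) by line and state, an adjusted p under 0.05 for the line term (Benjamini-Hochberg adjustment over the 12294 genes). Log2 differences are H929 over KMS28BM, so positive values are higher in H929. The spread in this test is the disagreement of the line difference between the states, with 1 residual degree of freedom per gene before moderation over genes. It is not a spread between cultures, and n is 2 libraries per line. Moderation added 34.6 prior degrees of freedom. The SE and adjusted p of a gene thus rest mostly on a spread shared over genes, not on its own. Each line came in a table of its own, so an effect of the line and one of its table cannot be told apart. The sources used here do not say whether both tables were normalized together. Among the 3756 genes at 5 FPKM or more in every library, the median line difference was -0.01 after and -0.11 before sorting, and over all 12294 genes it was -0.05 and 0.25. Across the protein-coding genes the line difference ran with GC content at Spearman rho 0.31 after sorting and -0.26 before it, a description over genes that share these 4 libraries.

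In all, 1548 genes (12.6%) were called higher in H929 than in KMS28BM and 1175 (9.56%) lower. List counts below are to be read beside these shares, and a count near them does not set a list apart. Of these calls 2708 were among the genes with the same direction in both states and 15 were not. Line differences of 2-fold or more in both states were held by 1179 higher (9.59%) and 878 lower genes (7.14%). Larger classes shrank steadily, to 311 higher and 255 lower genes at 4-fold, 55 and 60 at 16-fold, and 7 and 14 at 100-fold. Of the 12294 genes, 1822 reached 1 FPKM in H929 alone and 1211 in KMS28BM alone; list members that entered so had to differ, and their number is given with most lists. The median size of a line difference was 0.62 after and 0.72 before sorting on the log2 scale, against a median sorting difference of 0.31 in H929 and 0.29 in KMS28BM. Across genes, the line differences of both states correlated at Pearson r 0.76, as a description. With line as the only term, 3218 genes were called over all 4 libraries, 2477 of them also called above. Fits that left out 1 library as well kept a single library of its line, so the other line alone gave the spread and the lone library was assumed to vary like it. Such a fit without the H929 after library called 1020 higher and 419 lower, without H929 before 572 and 154, without KMS28BM before 123 and 515, and without KMS28BM after 0 and 0, where 3319 genes had an unadjusted limma p under 0.05.

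**Figure D1:**
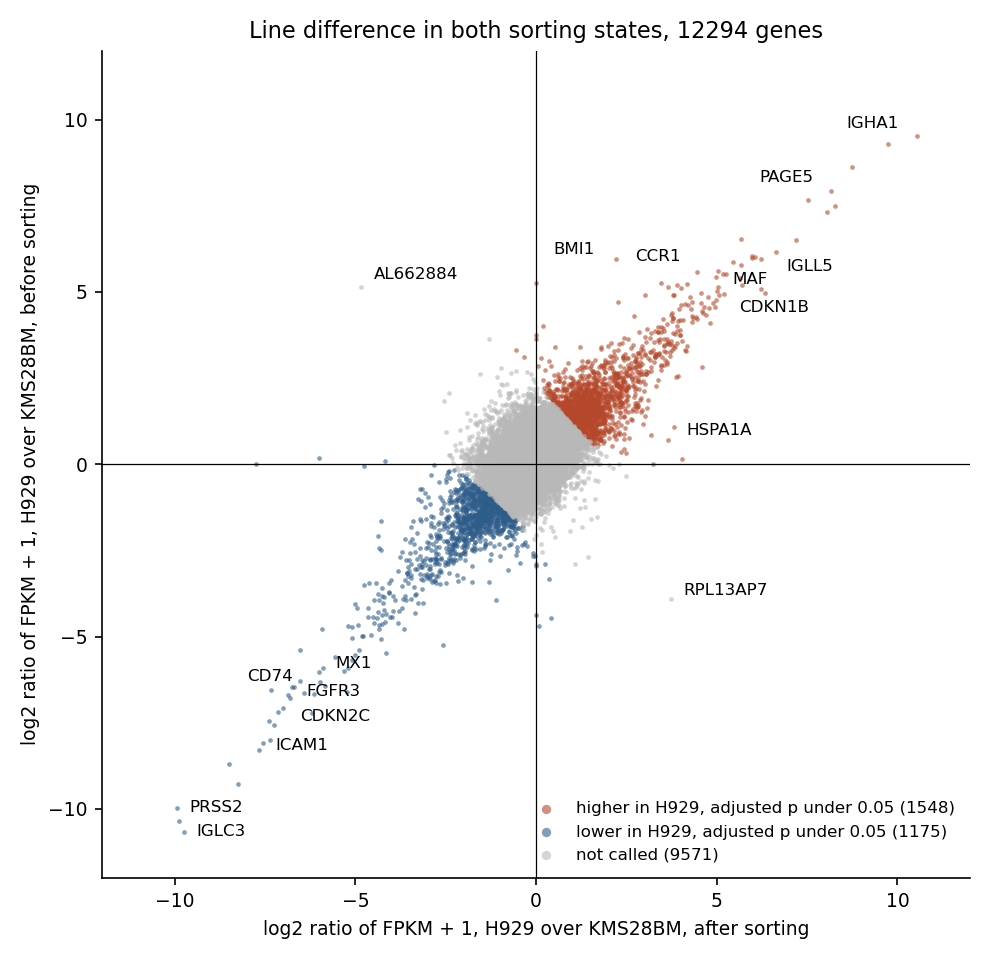
Log2 ratio of FPKM + 1 in H929 over KMS28BM after sorting (horizontal) and before sorting (vertical) for the 12294 genes, with 1548 genes called higher in H929 and 1175 called lower in colour. The genes far from the centre, IGHA1 in the upper right and PRSS2 and IGLC3 in the lower left, lie close to the diagonal, while AL662884 and RPL13AP7 sit in the corners where the states differ in sign.

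Promoter sequence is shown first for interferon-stimulated genes and for the CDK inhibitors CDKN1B and CDKN2C, whose levels are given further on. The windows come from RefSeq (GRCh38.p14) and hold the 250 bases before an annotated start. An ISRE-type motif, the kind of element that interferon-activated factors bind, was searched as GAAANNGAAA or, on the other strand, TTTCNNTTTC. Capitals mark its matches in IFI6 (chr1:27672193-27672442, minus strand, 3 matches), IFI27 (chr14:94110486-94110735, plus strand, 2 matches) and CXCL10 (chr4:76023498-76023747, minus strand, 1 match).
IFI6: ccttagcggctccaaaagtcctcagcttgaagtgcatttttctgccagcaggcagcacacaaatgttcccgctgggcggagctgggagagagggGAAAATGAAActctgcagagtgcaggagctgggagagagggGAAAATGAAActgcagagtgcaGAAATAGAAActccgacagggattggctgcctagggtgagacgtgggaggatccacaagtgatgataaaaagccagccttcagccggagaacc
IFI27: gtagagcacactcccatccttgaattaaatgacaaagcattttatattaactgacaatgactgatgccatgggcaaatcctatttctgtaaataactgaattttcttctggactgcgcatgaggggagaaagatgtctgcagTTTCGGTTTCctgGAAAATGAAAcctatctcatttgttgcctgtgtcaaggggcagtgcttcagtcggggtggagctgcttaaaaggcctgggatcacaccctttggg
CXCL10: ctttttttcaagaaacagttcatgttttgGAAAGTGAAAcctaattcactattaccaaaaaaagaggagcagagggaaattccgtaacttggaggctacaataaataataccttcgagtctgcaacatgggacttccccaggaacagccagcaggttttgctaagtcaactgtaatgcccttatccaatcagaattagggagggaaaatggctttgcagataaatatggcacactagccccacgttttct

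These 3 promoters belong to genes called lower in H929. Of the 32 measured members of the interferon list, 23 were matched by symbol to a promoter window and had 30 windows of 300 bases (250 before and 50 after the start). The motif lay in 22 of these windows (73.3%) and in 18 of the 23 genes, against 3.58% of all 34961 windows and 3.03% of the windows of genes at 1 FPKM or more. Of the 19 called members 12 had a window, and all 12 had the motif, in 16 of 17 windows (94.1%). Among the 11 uncalled members with a window 6 had it, in 6 of 13 windows (46.2%). The list was chosen with earlier results of these data known, and whether the motif goes with the line difference was not tested. A match describes the letters and is not evidence of binding.

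CDKN1B (chr12:12717118-12717367, plus strand) and CDKN2C (chr1:50968456-50968705, plus strand, the window with the most CG of its 3) encode CDK inhibitors that were near 0 in opposite lines. Capitals mark each CG, the pair of letters at which human DNA is methylated, with 27 in the CDKN1B stretch and 35 in that of CDKN2C. Over 300 bases the CDKN1B window held 29 CG and this CDKN2C window 37. The other CDKN2C windows held 8 and 11. The median was 14 over all windows and 26 over the windows of genes at 1 FPKM or more. No methylation was measured here.
CDKN1B: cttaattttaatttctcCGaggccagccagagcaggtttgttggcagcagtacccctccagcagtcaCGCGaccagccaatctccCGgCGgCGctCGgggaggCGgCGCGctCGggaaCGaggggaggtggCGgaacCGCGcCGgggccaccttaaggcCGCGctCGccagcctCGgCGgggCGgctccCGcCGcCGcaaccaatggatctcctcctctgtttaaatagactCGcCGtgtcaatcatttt
CDKN2C: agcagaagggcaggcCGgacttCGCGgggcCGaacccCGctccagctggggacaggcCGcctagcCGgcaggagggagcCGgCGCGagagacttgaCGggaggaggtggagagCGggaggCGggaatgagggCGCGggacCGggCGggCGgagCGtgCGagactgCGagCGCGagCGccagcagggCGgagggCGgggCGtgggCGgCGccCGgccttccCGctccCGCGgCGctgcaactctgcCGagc

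The antibody genes separated the lines at both chains, with H929 holding IgA and kappa transcripts and KMS28BM mainly lambda transcripts. KMS28BM also held kappa transcripts, with IGKC at 781 and 809.5 FPKM, and their source was not tested. IGHA1 (ENSG00000211895), the constant region of IgA1, had 9051 and 6130 FPKM in H929, against 5.05 and 7.35 FPKM in KMS28BM. Both H929 libraries stood far above both KMS28BM libraries, at a limma log2 difference of 10.03 (SE 0.38, adjusted p = 2.32e-21). IGKC (ENSG00000211592), the kappa constant region, had 10560 and 8865 FPKM in H929, against 781 and 809.5 FPKM in KMS28BM, a difference of 3.60 (SE 0.35, adjusted p = 3.39e-10). IGLC3 (ENSG00000211679), a lambda constant region, had 5.41 and 3.29 FPKM in H929, against 5526 and 6983 FPKM in KMS28BM, with a log2 difference of -10.21 (SE 0.38, adjusted p = 2.32e-21). IGLC2 had 9.69 and 5.12 FPKM in H929, against 3280 and 3814 FPKM in KMS28BM. The libraries of the lines did not overlap in any of these 4 genes. The share of all genes without such overlap was not counted, so here and below it does not set a gene apart. H929 is known as an IgA kappa line. In bulk RNA, fewer expressing cells and less RNA per cell cannot be told apart, here and below.

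All 6 measured heavy chain constant genes of the 9 listed were called higher in H929, with a median of 3.71 after and 3.96 before sorting, and 5 of the 6 reached 1 FPKM in H929 alone, so their inclusion already required a difference. Summed over the list, heavy chain constants reached 9402 and 6478 FPKM in H929, against 5.32 and 8.52 FPKM in KMS28BM. KMS28BM thus held light chain transcripts, mainly lambda, with almost no heavy chain constant transcripts. IGHG1, an IgG constant region, had 41.1 and 52 FPKM in H929, against 0.105 and 0.155 FPKM in KMS28BM. IGHA2, of IgA2, had 299.6 and 284 FPKM in H929, against 0.131 and 0.768 FPKM in KMS28BM. Of the 5 measured light chain genes of 7 listed, 2 were called higher (IGKC and IGLL5) and 2 lower (IGLC2 and IGLC3), with a list median of -0.91 after and -1.0 before sorting. IGLL5, which shares its constant exon with the lambda locus, had 1882 and 1666 FPKM in H929, against 17.8 and 22.4 FPKM in KMS28BM, opposite to IGLC2 and IGLC3. IGHA1, IGHA2, IGHG1, IGLC2, IGLC3 and IGLL5 share between 32.3% and 67.1% of their transcript words with other genes, so how their reads were divided is uncertain. JCHAIN, which joins IgA into dimers, had 589 and 1142 FPKM in H929, against 2430 and 1422 FPKM in KMS28BM, lower in the IgA line with a log2 difference of -1.18 (SE 0.39, adjusted p = 0.0242).

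FGFR3 and MAF, both oncogenes of myeloma translocation classes, were high in different lines. FGFR3 (ENSG00000068078), a growth factor receptor on chromosome 4, had 0.425 and 0.468 FPKM in H929, against 159 and 162 FPKM in KMS28BM. The values were nearly the same in both states of each line, and the log2 difference was -6.80 (SE 0.39, adjusted p = 4.25e-16). NSD2, its neighbour and partner in the 4;14 translocation, had 8.57 and 7.55 FPKM in H929, against 9.63 and 7.16 FPKM in KMS28BM, and was not called, with a log2 difference of -0.04 (SE 0.40, adjusted p = 0.954). Among the 7 genes listed for the breakpoint region, all measured (1 through KMS28BM alone), 2 were called lower in H929, FGFR3 and TMEM129, and 0 higher, with a median of -0.15 after and -0.16 before sorting. TMEM129, a ubiquitin ligase of the endoplasmic reticulum, had 12.5 and 10.7 FPKM in H929, against 22.7 and 29.9 FPKM in KMS28BM. LETM1, TACC3, SLBP and NELFA, which lie in the same region, were not called. H929 is commonly described as a 4;14 line that expresses FGFR3, which the libraries labelled H929 do not show, and no genotype was measured.

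MAF (ENSG00000178573), a leucine zipper transcription factor, had 33 and 44.3 FPKM in H929, against 0.0762 and 0.0553 FPKM in KMS28BM, with a log2 difference of 5.20 (SE 0.40, adjusted p = 1.04e-12). Of 12 listed MAF family members and MAF targets 9 were measured (3 through H929 alone and 1 through KMS28BM alone), 4 were called higher in H929 and 1 lower, with a median of 0.21 after and 1.84 before sorting. The 3 called targets known in myeloma were ITGB7, CCR1 and NUAK1. ITGB7, an integrin beta chain for adhesion, had 883 and 812 FPKM in H929, against 32.8 and 39 FPKM in KMS28BM, with a log2 difference of 4.53 (SE 0.38, adjusted p = 7.45e-12). CCR1, a chemokine receptor, had 34.3 and 80.4 FPKM in H929, against 0.601 and 0.689 FPKM in KMS28BM. NUAK1, a kinase of the AMPK family, had 8.39 and 13.9 FPKM in H929, against 0.155 and 0.142 FPKM in KMS28BM. These 3 targets did not overlap between lines, a trait whose share over all genes was not counted. CCND2, the cyclin D2 gene and another MAF target, had 15.1 and 30.8 FPKM in H929, against 20.2 and 18.9 FPKM in KMS28BM, with overlapping libraries and an adjusted p of 0.836. A MAF half-site, TGCTGA or TCAGCA, lay in 1 of 7 promoter windows of the list (14.3%), against 17.3% of all windows and 13% of the windows of genes at 1 FPKM or more.

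The plasma cell program was on in both lines, with single genes at unequal levels. Of 20 listed regulators and secretory genes 17 were measured, all in both lines. Of these, 2 were called higher in H929 and 4 lower, beside 12.6% and 9.56% of all genes. The median was -0.15 after and 0.28 before sorting. IRF4, a survival factor of myeloma cells, had 55.1 and 259.6 FPKM in H929, against 53.4 and 35 FPKM in KMS28BM. PRDM1, the repressor of the B cell program, had 51.5 and 80.2 FPKM in H929, against 28.2 and 16.8 FPKM in KMS28BM; both were called higher, although the H929 library after sorting came close to KMS28BM in IRF4. XBP1, the secretory transcription factor, had 191 and 305 FPKM in H929, against 122 and 117 FPKM in KMS28BM, with an adjusted p of 0.0525. The 4 called lower were POU2AF1, JCHAIN, DERL3 and ATF5. ATF5, a stress-responsive transcription factor, had 7.98 and 5.34 FPKM in H929, against 158 and 279 FPKM in KMS28BM, with a log2 difference of -4.80 (SE 0.40, adjusted p = 9.00e-12). POU2AF1, a B cell coactivator, had 5.16 and 7.82 FPKM in H929, against 15.1 and 15.7 FPKM in KMS28BM.

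Few genes of earlier B cell stages were on. Of 25 listed, 11 were measured, 4 through H929 alone and 4 through KMS28BM alone, with 2 called higher and 4 lower and a median of -0.37 after and 0.27 before sorting. PAX5, MS4A1 and CD79B, which define B cells, were under 1 FPKM in all 4 libraries. BACH2, a repressor of plasma cell differentiation, had 1.47 and 3.44 FPKM in H929, against 0.407 and 0.205 FPKM in KMS28BM. CD37, a tetraspanin of B cells, had 1.96 and 1.91 FPKM in H929, against 0.0297 and 0.0114 FPKM in KMS28BM. Both were low even in H929. BANK1, an adaptor of B cell receptor signalling, had 0.0775 and 0.0883 FPKM in H929, against 11.2 and 4.23 FPKM in KMS28BM. CR2, a complement receptor, had the floor in both libraries of H929, against 7.25 and 4.41 FPKM in KMS28BM. These 2 genes were under 0.1 FPKM in H929. SPIB, an ETS factor of B cells, had 0.0559 and 0.215 FPKM in H929, against 1.66 and 3.51 FPKM in KMS28BM. ID3, an inhibitor of E proteins, had 26.8 and 10.8 FPKM in H929, against 55.6 and 57.1 FPKM in KMS28BM, and was called lower.

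Surface antigens differed widely, including several that are targets of myeloma therapy. Of 30 listed 23 were measured (3 through H929 alone and 4 through KMS28BM alone), with 4 called higher in H929 and 11 lower, and a median of -1.26 after and -0.78 before sorting. TNFRSF17, the antigen BCMA, had 25.9 and 33.9 FPKM in H929, against 41.6 and 35.3 FPKM in KMS28BM, and was not called. CD38, the target of daratumumab, had 6.89 and 16.1 FPKM in H929, against 19.9 and 15.9 FPKM in KMS28BM, and was not called either. The lines overlapped in CD38 and lay close together in TNFRSF17. SLAMF7, the target of elotuzumab, had 1.15 and 2.25 FPKM in H929, against 52.5 and 34.5 FPKM in KMS28BM, with a log2 difference of -4.04 (SE 0.41, adjusted p = 8.39e-10). Both H929 libraries lay far below both KMS28BM libraries. GPRC5D, an orphan receptor targeted by bispecific antibodies, ran the other way with 16.4 and 29.6 FPKM in H929, against 1.4 and 1.13 FPKM in KMS28BM, with a log2 difference of 3.35 (SE 0.41, adjusted p = 5.29e-08). SDC1, the plasma cell marker CD138, had 76 and 73 FPKM in H929, against 148 and 187 FPKM in KMS28BM, and was called lower.

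Adhesion and costimulation molecules split as well. ICAM1, the ligand of leukocyte integrins, had 0.664 and 0.194 FPKM in H929, against 312 and 326 FPKM in KMS28BM, with a log2 difference of -7.83 (SE 0.39, adjusted p = 8.16e-18). Both H929 libraries were under 1 FPKM. ITGAL, which encodes the alpha chain of its receptor LFA-1, was high in the other line, with 24.4 and 22.7 FPKM in H929, against 0.183 and 0.235 FPKM in KMS28BM, with a log2 difference of 4.35 (SE 0.40, adjusted p = 9.29e-11). CD28, a T cell costimulatory receptor also found on myeloma cells, had 23.6 and 46.4 FPKM in H929, against 0.521 and 0.354 FPKM in KMS28BM. NCAM1, or CD56, had 2.16 and 2.83 FPKM in H929, against 0.0361 and 0.0314 FPKM in KMS28BM. In these 3 receptor genes the H929 libraries were the higher ones. CD40, a receptor that activates NF-kB, had 0.0174 FPKM and the floor in H929, against 17.1 and 19.4 FPKM in KMS28BM. CD70, a ligand of the same superfamily, had 1.83 and 1.62 FPKM in H929, against 36.4 and 45.8 FPKM in KMS28BM. CD81, a tetraspanin, had 0.274 and 0.22 FPKM in H929, against 19.4 and 25.5 FPKM in KMS28BM. These 3 were lower in both H929 libraries, with CD40 and CD81 under 1 FPKM there. LILRB4, an inhibitory receptor, had 8.05 and 8.85 FPKM in H929, against the floor and 0.0224 FPKM in KMS28BM. CD48, LY9, CD74, FCRLA and IL6R were also called lower in H929.

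Apart from immunoglobulins, the gene with the largest difference in either direction was PRSS2 (ENSG00000275896), which encodes the pancreatic digestive enzyme trypsinogen 2. It had 2.08 and 1.98 FPKM in H929, against 3046 and 2970 FPKM in KMS28BM, with a log2 difference of -9.96 (SE 0.38, adjusted p = 2.32e-21). PRSS1, the cationic trypsinogen, had 0.501 and 0.4 FPKM in H929, against 544 and 583 FPKM in KMS28BM. PRSS21, the testis protease testisin, had 0.035 FPKM and the floor in H929, against 23.6 and 30.2 FPKM in KMS28BM. These were the 3 measured genes of the 9 listed trypsinogens and relatives, all called lower in H929, with a median of -8.51 after and -8.70 before sorting; PRSS1 and PRSS21 entered through KMS28BM alone, so their inclusion already required a difference, while KLK1, CTRC and CELA1 stayed under 1 FPKM. PRSS2 shares 10.7% of its words with other genes and PRSS1 4.23%.

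The other genes at the low end of the ranking cover several functions. UCHL1, a neuronal deubiquitinase, had 0.192 and 0.291 FPKM in H929, against 241 and 403 FPKM in KMS28BM. GSTP1, a glutathione transferase, had 0.169 and 0.0898 FPKM in H929, against 193 and 280.2 FPKM in KMS28BM. ASS1, argininosuccinate synthase of arginine synthesis, had 0.111 and 0.136 FPKM in H929, against 168 and 215 FPKM in KMS28BM. The H929 libraries stayed under 1 FPKM in these 3 genes. ITM2A, a membrane protein, had 0.139 and 0.078 FPKM in H929, against 123 and 93.3 FPKM in KMS28BM. CXCL10, an interferon-induced chemokine, had 0.251 and 0.257 FPKM in H929, against 202 and 117 FPKM in KMS28BM. C4A and C4B, the complement C4 genes, and UBD, a ubiquitin-like modifier, were also among the 15 lowest but share between 64.8% and 94.1% of their words with other genes. The KMS28BM libraries were above both H929 libraries in each of these genes.

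At the high end, TEX19, a germ cell gene, had 190.1 and 131 FPKM in H929, against 0.317 and 0.456 FPKM in KMS28BM. NMB, the peptide neuromedin B, had 91 and 91.4 FPKM in H929, against 0.461 and 0.468 FPKM in KMS28BM. WLS, the carrier of Wnt proteins, had 69.1 and 68.5 FPKM in H929, against 0.121 and 0.0625 FPKM in KMS28BM. The last pair varied by under 1 FPKM between the states of each line. GPR15, a homing receptor, had 51.3 and 99.3 FPKM in H929, against 0.0273 and 0.0699 FPKM in KMS28BM. ALOX5AP, of leukotriene synthesis, had 95.5 and 126 FPKM in H929, against 1.2 and 1.15 FPKM in KMS28BM. In both genes the H929 library before sorting was the higher of its line. PTPN6, the phosphatase SHP-1 that dampens receptor signalling, had 57.9 and 41.3 FPKM in H929, against 0.139 and 0.151 FPKM in KMS28BM. CST7, a cystatin of leukocytes, had 65.3 and 64.2 FPKM in H929, against the floor in both libraries of KMS28BM, so no fold is given. CDC42EP1, a Cdc42 effector, and PLAAT2, a phospholipid acyltransferase, were also at this end, with the cancer-testis gene PAGE5.

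**Figure D2:**
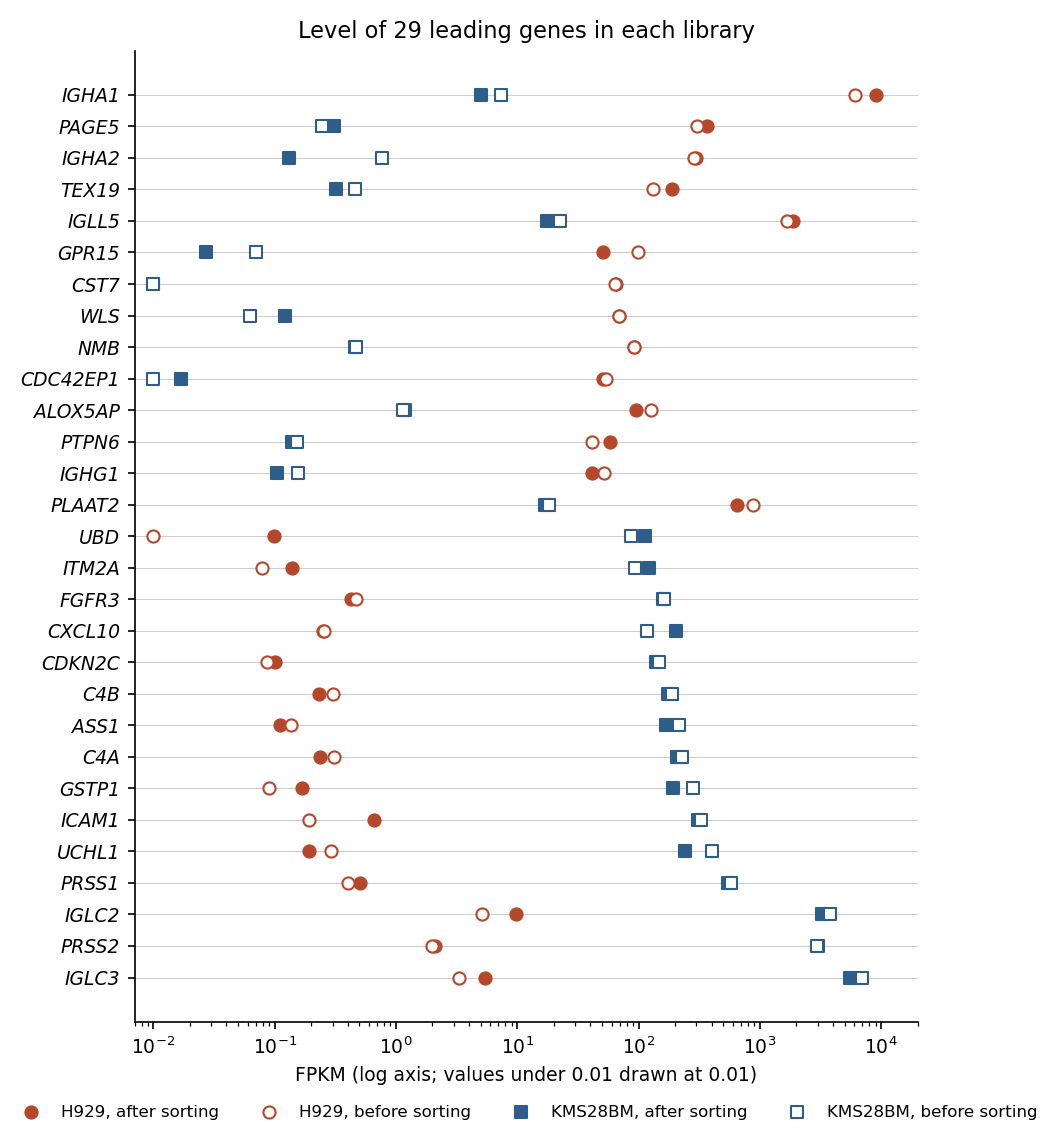
FPKM in each library, on a log axis, of 14 of the 15 highest and of the 15 lowest genes by the smaller of the states' log2 ratios, with H929 as circles, KMS28BM as squares, filled marks for after sorting and open marks for before sorting, and values under 0.01 FPKM drawn at 0.01. In each row the gap between lines is wider than that between the states of a line, which is narrow for NMB with 91 and 91.4 FPKM in H929, against 0.461 and 0.468 FPKM in KMS28BM, and wider for IGHA2 with 0.131 and 0.768 FPKM in KMS28BM, and the lines do not overlap. The genes were picked for a large difference in both states, which favours such gaps.

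Cancer-testis antigens, genes normally kept to germ cells, were on mainly in H929. Of 36 listed, 11 were measured, 10 of them through H929 alone, 8 were called higher in H929 and 0 lower, with a median of 3.14 after and 3.49 before sorting; the remaining 25 were under 1 FPKM in every library. PAGE5 (ENSG00000158639) had 369 and 304 FPKM in H929, against 0.306 and 0.244 FPKM in KMS28BM, with a log2 difference of 8.04 (SE 0.39, adjusted p = 3.77e-18). MAGEB1 had 31.4 and 33.2 FPKM in H929, against the floor and 0.0478 FPKM in KMS28BM. MAGEA1 had 14.7 and 10.7 FPKM in H929, against 0.0498 and 0.0276 FPKM in KMS28BM. The KMS28BM libraries were under 0.5 FPKM in these genes. SSX1 had 7.83 and 7.2 FPKM in H929, against the floor in both libraries of KMS28BM. MAGEA3 and MAGEA6 were high in H929 too, at 24.7 and 20.9 FPKM and at 23 and 20.7 FPKM, but share 56.5% and 53.9% of their words with near copies. SAGE1 had 3.92 and 10.4 FPKM in H929, against the floor and 0.016 FPKM in KMS28BM. TEX14, a gene of germ cell division, was the 1 measured member above H929 in KMS28BM, with 0.427 and 1.11 FPKM in H929, against 3.08 and 1.85 FPKM in KMS28BM, and was not called.

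Most measured genes of HLA class II presentation were lower in H929. Of 15 listed genes of this pathway 12 were measured, 6 of them through KMS28BM alone, 10 were called lower in H929 and 0 higher, with a median of -2.64 after and -3.13 before sorting. CD74, the invariant chain that guards the peptide groove, had 7.17 and 6.12 FPKM in H929, against 578 and 721 FPKM in KMS28BM, with a log2 difference of -6.41 (SE 0.39, adjusted p = 1.11e-15). HLA-DRA, the shared DR alpha chain, had 3.78 and 3.38 FPKM in H929, against 227 and 212 FPKM in KMS28BM, with a log2 difference of -5.59 (SE 0.39, adjusted p = 6.36e-14). HLA-DRB1 had 0.237 and 0.145 FPKM in H929, against 70 and 98.2 FPKM in KMS28BM. In each of these genes the states of a line lay close together beside the gap between lines. HLA-DQA1 had 0.0221 and 0.0127 FPKM in H929, against 18 and 18.1 FPKM in KMS28BM. HLA-DMA, which helps load peptides, had 2.46 and 1.92 FPKM in H929, against 21 and 31.4 FPKM in KMS28BM. CIITA, the coactivator that switches these genes on, had 0.668 and 1.3 FPKM in H929, against 1.15 and 0.909 FPKM in KMS28BM, with overlapping libraries and an adjusted p of 0.947. CTSS, the protease that trims the invariant chain, was not called.

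Class I presentation differed by smaller folds. Of 18 listed 17 were measured, all in both lines, with 9 called lower in H929 and 1 higher, and a median of -0.85 after and -0.82 before sorting. HLA-C had 68.2 and 55.6 FPKM in H929, against 373 and 416 FPKM in KMS28BM, with a log2 difference of -2.66 (SE 0.38, adjusted p = 1.16e-06). HLA-B had 512 and 388 FPKM in H929, against 1047 and 1086 FPKM in KMS28BM. HLA-C and HLA-B did not overlap between lines, which was not counted over all genes. B2M, the shared light chain, had 274 and 342 FPKM in H929, against 738 and 603 FPKM in KMS28BM. TAP1, a peptide transporter, had 21 and 25.8 FPKM in H929, against 78.2 and 96 FPKM in KMS28BM. The gap between lines was wider than that between states in both genes. ERAP2, a peptide trimming enzyme, had 0.94 and 2.72 FPKM in H929, against 15.2 and 5.58 FPKM in KMS28BM. PSMB10, an immunoproteasome subunit, was the member called higher, with 84.5 and 72 FPKM in H929, against 30.4 and 42.9 FPKM in KMS28BM, and its transcript shares 27.5% of its words with another gene. HLA reads depend on how well each line's alleles match the annotation, which was not tested.

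Most measured interferon-stimulated genes were called lower in H929. Of 34 listed 32 were measured, 2 through H929 alone and 14 through KMS28BM alone, 19 were called lower and 0 higher, with a median of -2.17 after and -1.09 before sorting. MX1, an antiviral GTPase, had 0.0356 and 0.0381 FPKM in H929, against 66 and 67.2 FPKM in KMS28BM, with a log2 difference of -6.03 (SE 0.40, adjusted p = 1.56e-14). IFI27, a mitochondrial protein, had 0.858 and 1.5 FPKM in H929, against 69.3 and 241 FPKM in KMS28BM. IFI6, an antiviral membrane protein, had 21.3 and 34.1 FPKM in H929, against 763 and 920.0 FPKM in KMS28BM, with a log2 difference of -4.91 (SE 0.38, adjusted p = 9.66e-13); these are the genes whose promoters are printed above with 2 and 3 ISRE-type matches. On the log2 scale the gap between lines exceeded that between states in these 3 genes. ISG15, a ubiquitin-like modifier, had 50.2 and 99.5 FPKM in H929, against 638 and 1039 FPKM in KMS28BM. BST2, which tethers budding virus, had 285 and 292 FPKM in H929, against 1189 and 1554 FPKM in KMS28BM. H929 expressed both at 50 FPKM or more. Of the signalling genes, IRF7 had 4.74 and 10.9 FPKM in H929, against 37.6 and 49.4 FPKM in KMS28BM, and STAT2, with 8.01 and 11.7 FPKM in H929, against 5.54 and 4.97 FPKM in KMS28BM, was not called.

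Several members moved between the states of H929. IFIT3, an RNA-binding antiviral protein, had 1.1 and 6.17 FPKM in H929, against 39.9 and 21.3 FPKM in KMS28BM. IFI44 had 0.0415 and 0.446 FPKM in H929, against 6.57 and 3.17 FPKM in KMS28BM. In both genes the H929 libraries stayed below the KMS28BM libraries, although the before library was nearer. OAS3, an enzyme of the RNA decay pathway, lay higher in H929 in both states, with 0.795 and 1.0 FPKM in H929, against 0.213 and 0.0922 FPKM in KMS28BM, and was not called. IFNGR2, the second chain of the interferon gamma receptor and not on the list, had 0.0359 and 0.0913 FPKM in H929, against 12.5 and 11.7 FPKM in KMS28BM, a gene noticed after its values were seen.

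NF-kB genes were mixed. Of 27 listed subunits, regulators and targets 23 were measured (2 through H929 alone and 2 through KMS28BM alone), with 2 called higher in H929 and 7 lower, and a median of -0.45 after and 0.0045 before sorting. NFKB1, RELA and RELB, which encode subunits, were not called, and neither was NFKB2, with 37.4 and 34 FPKM in H929, against 53.4 and 62.6 FPKM in KMS28BM. These 4 subunit genes did not pass the threshold. NFKBIA, the inhibitor that NF-kB itself induces, had 27.9 and 21.4 FPKM in H929, against 71.8 and 73.7 FPKM in KMS28BM. TNFAIP3, another induced inhibitor, had 7.58 and 6.24 FPKM in H929, against 31.1 and 19.4 FPKM in KMS28BM. TRAF1, a target, had 0.833 and 1.21 FPKM in H929, against 4.92 and 5.35 FPKM in KMS28BM; all were called lower. H929 was below KMS28BM in both states in each of them. BIRC2, the ubiquitin ligase cIAP1 that restrains the alternative pathway, had 1.76 and 3.46 FPKM in H929, against 0.059 and 0.0393 FPKM in KMS28BM, with a log2 difference of 1.74 (SE 0.40, adjusted p = 0.00148). TRAF3, a regulator often lost in myeloma, had 4.97 and 5.06 FPKM in H929, against 7.16 and 7.06 FPKM in KMS28BM, and was not called. An NF-kB-type motif, GGGANNNNCC or GGNNNNTCCC, lay in 22 of 33 windows of the list (66.7%), against 25.6% of all windows and 31.1% of the windows of genes at 1 FPKM or more.

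Different CDK inhibitors were near 0 in the lines. CDKN1B (ENSG00000111276), which encodes p27, had 33 and 35.9 FPKM in H929, against 0.0334 and 0.0368 FPKM in KMS28BM, with a log2 difference of 5.10 (SE 0.40, adjusted p = 1.64e-12). CDKN2C (ENSG00000123080), which encodes p18 and is often lost in myeloma, had 0.10 and 0.0857 FPKM in H929, against 139.9 and 146 FPKM in KMS28BM, with a log2 difference of -7.04 (SE 0.40, adjusted p = 1.73e-16). Promoter windows of both genes are shown above, and the libraries of a line differed little between states. FAF1, the gene next to CDKN2C on chromosome 1 and often lost with it, had 0.0168 and 0.0158 FPKM in H929, against 16 and 12.2 FPKM in KMS28BM, with a log2 difference of -3.88 (SE 0.40, adjusted p = 1.59e-09). CDKN1A, the inhibitor p21, had 2.08 and 1.39 FPKM in H929, against 104 and 122 FPKM in KMS28BM, with a log2 difference of -5.39 (SE 0.40, adjusted p = 2.77e-13). CDKN2A had 60.4 and 55.2 FPKM in H929, against 62.1 and 54.9 FPKM in KMS28BM, and was not called.

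RB1, the retinoblastoma protein that these inhibitors protect, had 1.21 and 4.35 FPKM in H929, against 0.0815 and 0.0524 FPKM in KMS28BM, with a log2 difference of 1.69 (SE 0.41, adjusted p = 0.00258). Of the 20 listed D cyclins, CDKs, inhibitors and RB or E2F genes, all measured (3 through H929 alone and 3 through KMS28BM alone), 3 were called higher in H929 (CDKN1B, RB1 and RBL2) and 3 lower (CDKN1A, CDKN2C and E2F1), with a median of -0.10 after and 0.25 before sorting. No D cyclin was called, CCND3 having 9.29 and 5.42 FPKM in H929, against 5.95 and 4.19 FPKM in KMS28BM. Of 28 listed myeloma tumour suppressors and recurrent targets, 22 were measured (4 through H929 alone and 3 through KMS28BM alone), with 2 called higher (BIRC2 and RB1), 3 lower, CDKN2C and FAF1 among them, and a median of -0.25 after and 0.58 before sorting. For this list and the one before it, the shares over all genes were 12.6% higher and 9.56% lower. DIS3, KDM6A, SETD2 and KMT2C were not called.

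**Figure D3:**
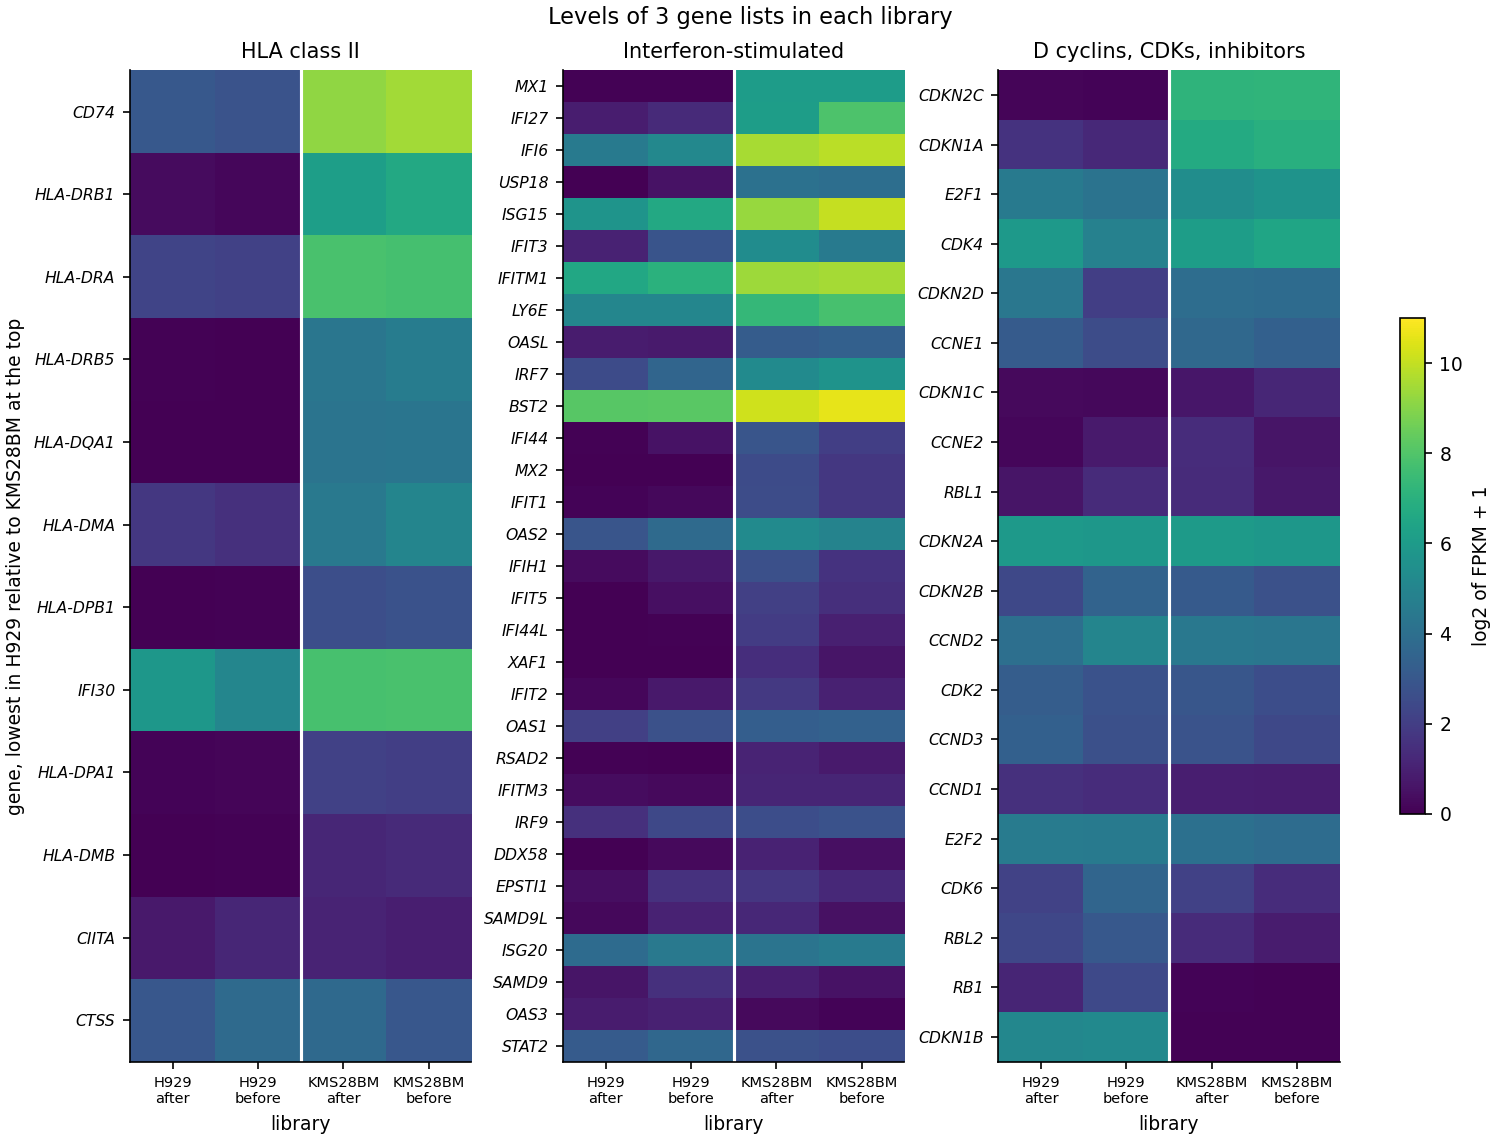
Log2 of FPKM + 1 in each library (columns, H929 left of KMS28BM) for measured HLA class II, interferon-stimulated and D cyclin or CDK genes (rows), with brighter colours for higher levels. The upper rows of the first 2 panels are brighter in both KMS28BM columns, as for CD74 with 7.17 and 6.12 FPKM in H929, against 578 and 721 FPKM in KMS28BM, and the last panel has CDKN2C at the top and CDKN1B at the bottom, each dark in 1 line.

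In the BCL2 family, which decides on apoptosis, different survival members were higher in different lines. Of 16 listed 14 were measured (2 through KMS28BM alone), with 1 called higher in H929, 7 lower and a median of -0.84 after and -0.78 before sorting. MCL1 had 127 and 259 FPKM in H929, against 93.6 and 60.4 FPKM in KMS28BM, with a log2 difference of 1.26 (SE 0.40, adjusted p = 0.0211), the member called higher. BCL2 had 1.9 and 5.92 FPKM in H929, against 25.2 and 20.6 FPKM in KMS28BM, with a log2 difference of -2.41 (SE 0.42, adjusted p = 3.37e-05). BCL2L1, which encodes BCL-xL, had 8.34 and 6.83 FPKM in H929, against 43 and 46.8 FPKM in KMS28BM, with a log2 difference of -2.42 (SE 0.39, adjusted p = 1.24e-05). BCL2 and BCL2L1 ran opposite to MCL1. Death-promoting members called lower included BCL2L11, or BIM, with 3.69 and 9.66 FPKM in H929, against 15 and 16.4 FPKM in KMS28BM, PMAIP1, or NOXA, with 5.22 and 4.05 FPKM in H929, against 56.5 and 14.2 FPKM in KMS28BM, and BIK with the floor and 0.15 FPKM in H929, against 2.31 and 3.91 FPKM in KMS28BM.

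RAS-MAPK genes were called about as often as all genes (12.6% higher and 9.56% lower). All 26 listed were measured (2 through H929 alone and 1 through KMS28BM alone), with 4 called higher in H929, 2 lower and a median of 0.02 after and 0.42 before sorting. The pathway's own feedback genes did not share a direction: SPRY4 was called higher, with 4.58 and 4.1 FPKM in H929, against 1.36 and 0.983 FPKM in KMS28BM, DUSP5 lower, with 179 and 299.7 FPKM in H929, against 528 and 532 FPKM in KMS28BM, and DUSP6, with 16.1 and 13.9 FPKM in H929, against 9.04 and 7.83 FPKM in KMS28BM, was not called. NRAS had 10.7 and 23.5 FPKM in H929, against 10.3 and 5.46 FPKM in KMS28BM, with an adjusted p of 0.0936. Of 23 listed receptor tyrosine kinases outside FGFR3, 7 were measured, 3 called higher (FGFR1, FGFR4 and EPHB6, the 3 that entered through H929 alone and so had to differ) and 0 lower, with a median of 1.37 after and 0.47 before sorting. EPHB6, an ephrin receptor, had 5.09 and 3.88 FPKM in H929, against 0.08 and 0.133 FPKM in KMS28BM. FGFR1 had 1.65 and 1.32 FPKM in H929, against 0.02 and 0.0251 FPKM in KMS28BM.

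Interleukin 6 signalling genes went both ways. Of 22 listed 20 were measured (4 through H929 alone and 3 through KMS28BM alone), with 4 called higher in H929, 4 lower and a median of 0.15 after and 0.11 before sorting, which turned negative when a GC and length trend was removed. IL6, a growth factor of myeloma cells, was listed at the floor in both libraries of H929, against 2.25 and 1.83 FPKM in KMS28BM. Its receptor IL6R had 1.11 and 1.56 FPKM in H929, against 6.08 and 4.44 FPKM in KMS28BM. SOCS3, the inhibitor it induces, had 2.83 and 2.61 FPKM in H929, against 80.2 and 78.8 FPKM in KMS28BM, with a log2 difference of -4.43 (SE 0.39, adjusted p = 3.76e-11). The ligand, the receptor and the inhibitor were called lower in H929. JAK3 had 0.591 and 0.853 FPKM in H929, against 6.72 and 8.13 FPKM in KMS28BM and JAK1 ran the other way, with 6.38 and 14 FPKM in H929, against 3.75 and 1.82 FPKM in KMS28BM. IL10RA and IL2RG, cytokine receptor chains, and the phosphatase PTPN6 were called higher, while STAT3 and PIM2, a kinase that supports myeloma survival, were not called. IL2RG shares 48.97% of its words with other genes and is uncertain.

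MYC itself, with 5.68 and 4.47 FPKM in H929, against 4.19 and 3.86 FPKM in KMS28BM, was not called. Of 14 genes of its network 10 were measured (2 through KMS28BM alone), with 2 called lower in H929, MYCL and MXD1, 0 higher and a median of -0.00056 after and 0.12 before sorting. MYCL, a MYC paralogue, had 0.102 and 0.173 FPKM in H929, against 4.63 and 4.14 FPKM in KMS28BM. MXD1, a partner that opposes MYC at MAX, had 0.358 and 0.303 FPKM in H929, against 4.35 and 3.33 FPKM in KMS28BM. MAX had 3.04 and 6.02 FPKM in H929, against 3.71 and 2.97 FPKM in KMS28BM.

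Among adhesion and homing genes, 19 of 35 listed were measured (4 through H929 alone and 3 through KMS28BM alone), with 7 called higher in H929 and 2 lower, and a median of 0.41 after and 0.82 before sorting. ITGB7 and its partner alpha chain ITGA4, together the gut-homing integrin, were both called higher, ITGA4 with 8.53 and 31.7 FPKM in H929, against 5.61 and 2.06 FPKM in KMS28BM. ITGB5 had 25.6 and 34.6 FPKM in H929, against 2.89 and 3.14 FPKM in KMS28BM. The integrin chains did not overlap between lines, a trait whose share over all genes was not counted. SELPLG, a selectin ligand, had 50.9 and 70.7 FPKM in H929, against 27.2 and 29 FPKM in KMS28BM. CCR10, a chemokine receptor of plasma cells, had 8.15 and 6.53 FPKM in H929, against 2.15 and 3.08 FPKM in KMS28BM. SELPLG and CCR10 were called higher. CXCR4, which holds plasma cells in marrow, had 4.22 and 5.36 FPKM in H929, against 4.7 and 3.37 FPKM in KMS28BM, and was not called. CDH2, or N-cadherin, had the floor in both libraries of H929, against 1.93 and 1.64 FPKM in KMS28BM, and was called lower.

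Ligands that act on the bone marrow niche were split. Of 25 listed 12 were measured (2 through H929 alone and 3 through KMS28BM alone), with 4 called higher in H929, 3 lower and a median of -0.32 after and -0.44 before sorting, which turned positive with 5 FPKM as the minimum. TGFB1, which restrains bone formation and immunity, had 179.8 and 106 FPKM in H929, against 11.4 and 17.3 FPKM in KMS28BM, with a log2 difference of 3.20 (SE 0.40, adjusted p = 1.00e-07). CCL5, a chemokine, had 147 and 134 FPKM in H929, against 52.3 and 52.2 FPKM in KMS28BM. TGFB1 and CCL5 were called higher. VEGFA, the vessel growth factor, had 3.7 and 8.32 FPKM in H929, against 17 and 11.6 FPKM in KMS28BM. BMP6 had 8.64 and 9.58 FPKM in H929, against 22.8 and 17.9 FPKM in KMS28BM. VEGFA and BMP6 were called lower. CXCL8, or interleukin 8, had 0.605 and 0.16 FPKM in H929, against 3.74 and 2.18 FPKM in KMS28BM, and was called lower as well. CCL3, the osteoclast-activating chemokine MIP-1 alpha, was high in both lines, with 283 and 309.6 FPKM in H929, against 350.4 and 481 FPKM in KMS28BM, and not called. DKK1, the Wnt inhibitor tied to bone lesions, stayed under 1 FPKM in all 4 libraries.

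In the Notch and Wnt pathways 14 of 27 listed genes were measured (3 through H929 alone and 5 through KMS28BM alone), with 2 called higher, 3 lower and a median of 0.15 after and 0.08 before sorting, which turned negative with 5 FPKM as the minimum and with a GC and length trend removed. WNT10A, a Wnt ligand, had 0.399 and 0.218 FPKM in H929, against 26.6 and 39.8 FPKM in KMS28BM, with a log2 difference of -4.68 (SE 0.40, adjusted p = 1.96e-11). NRARP, a Notch feedback gene, had 0.489 and 0.129 FPKM in H929, against 2.24 and 2.57 FPKM in KMS28BM. WNT10A and NRARP were called lower in H929. NOTCH2, a receptor that shares 23.4% of its words with other genes, had 9.17 and 14.7 FPKM in H929, against 1.41 and 1.03 FPKM in KMS28BM. HEY1, a target, had 1.07 and 1.39 FPKM in H929, against 0.0685 and 0.0172 FPKM in KMS28BM. Both were called higher. HES4, also a Notch target, was listed at the floor in both libraries of H929, against 2.97 and 4.04 FPKM in KMS28BM.

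Cytoskeletal genes held the largest number of calls higher in H929 of any list, but not the largest share. Cancer-testis antigens had 8 of 11 called higher and heavy chain constants 6 of 6. Of 34 listed 31 were measured (4 through H929 alone and 1 through KMS28BM alone), with 14 called higher, 2 lower and a median of 1.09 after and 0.88 before sorting. LGALS3, a galectin, had 24.5 and 24 FPKM in H929, against 0.172 and 0.338 FPKM in KMS28BM, with a log2 difference of 4.33 (SE 0.40, adjusted p = 9.90e-11). LGALS1 had 719 and 459 FPKM in H929, against 105 and 158 FPKM in KMS28BM. The galectins were both called higher. S100A10, a partner of annexin A2, had 80.8 and 85 FPKM in H929, against 3.11 and 3.38 FPKM in KMS28BM. VIM, or vimentin, had 371 and 590.5 FPKM in H929, against 121 and 128 FPKM in KMS28BM. MSN, or moesin, had 159 and 139 FPKM in H929, against 49.6 and 41 FPKM in KMS28BM. Calls were higher in H929 for these 3 genes as well. TUBB6, a beta tubulin, had 8.85 and 8.26 FPKM in H929, against 0.0109 and 0.0715 FPKM in KMS28BM. TPM4, a tropomyosin, ran the other way with 5.47 and 5.22 FPKM in H929, against 29.9 and 11.8 FPKM in KMS28BM, and ACTB, with 390.2 and 356 FPKM in H929, against 338 and 446 FPKM in KMS28BM, was not called.

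Genes of the secretory pathway and its stress response were called lower in H929 where they were called at all. All 22 listed were measured, with 0 called higher, 7 lower and a median of -1.05 after and -0.56 before sorting. HSPA5, the endoplasmic reticulum chaperone BiP, had 307 and 177 FPKM in H929, against 1181 and 786 FPKM in KMS28BM, with a log2 difference of -2.04 (SE 0.37, adjusted p = 5.82e-05). ATF4, the transcription factor of the integrated stress response, had 28.9 and 41 FPKM in H929, against 95.6 and 103 FPKM in KMS28BM, and its target DDIT3, or CHOP, had 6.96 and 12.9 FPKM in H929, against 28.1 and 28.2 FPKM in KMS28BM. These stress genes were separated between lines in both states. SEL1L, of the pathway that removes misfolded proteins, had 6.64 and 19.5 FPKM in H929, against 56.6 and 24.3 FPKM in KMS28BM. HYOU1, an ER chaperone, had 41.9 and 38.1 FPKM in H929, against 143 and 129.6 FPKM in KMS28BM. HSP90B1 had 29 and 69.9 FPKM in H929, against 159 and 57.8 FPKM in KMS28BM, with overlapping libraries, and was not called.

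Amino acid genes, many of them ATF4 targets, leaned the same way. Of 21 listed 20 were measured (1 through H929 alone and 1 through KMS28BM alone), with 1 called higher, 6 lower and a median of -0.76 after and -0.30 before sorting. CHAC1, which degrades glutathione, had 3.35 and 8.58 FPKM in H929, against 39.6 and 60.1 FPKM in KMS28BM. TRIB3, a pseudokinase, had 13.1 and 33.2 FPKM in H929, against 48 and 67.7 FPKM in KMS28BM. PSAT1, of serine synthesis, had 43.6 and 93.1 FPKM in H929, against 171 and 117 FPKM in KMS28BM. ASS1, given above, was called lower too. SLC3A2, the heavy chain of amino acid transporters, was called higher, with 168 and 157 FPKM in H929, against 74 and 84.9 FPKM in KMS28BM.

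Heat shock genes held 3 calls each way among 18 measured of 19 listed, with a median of -0.18 after and 0.13 before sorting. Over all genes 12.6% were called higher and 9.56% lower. HSPB1, a small chaperone, had 344 and 244 FPKM in H929, against 67.5 and 87.2 FPKM in KMS28BM, with a log2 difference of 1.90 (SE 0.38, adjusted p = 0.000281). HSPD1, the mitochondrial chaperonin, had 40.9 and 44.3 FPKM in H929, against 194 and 102 FPKM in KMS28BM, with a log2 difference of -1.70 (SE 0.39, adjusted p = 0.00136). The calls of these chaperones had opposite directions. HSPA1A, an inducible chaperone, had 196 and 30.5 FPKM in H929, against 13 and 13.8 FPKM in KMS28BM; the H929 library after sorting stood apart, and the gene shares 71.3% of its words with its near copy HSPA1B. DNAJB1, with 142 and 30.6 FPKM in H929, against 31.8 and 33 FPKM in KMS28BM, showed the same lone high library and was not called.

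Proteasome genes, the targets of bortezomib, were called at shares below those of all genes (12.6% higher and 9.56% lower). All 29 were measured, with 0 called higher, 2 lower (PSMB2 and PSME1) and a median of -0.30 after and -0.57 before sorting. PSMB5, which encodes the subunit that bortezomib binds, had 74.1 and 46.6 FPKM in H929, against 98.2 and 129 FPKM in KMS28BM, and was not called. Of 48 cytosolic ribosomal protein genes, all measured, 3 were called higher and 0 lower, with a median of 0.03 after and -0.16 before sorting. RPL32 stood out, with 1363 and 920.0 FPKM in H929, against 164 and 149.6 FPKM in KMS28BM, with a log2 difference of 2.83 (SE 0.37, adjusted p = 2.14e-07), followed by RPL29, with 449.6 and 732 FPKM in H929, against 223 and 278 FPKM in KMS28BM.

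Glycolysis and hypoxia genes were called in both directions. Of 26 listed 25 were measured (2 through H929 alone and 2 through KMS28BM alone), with 8 called higher in H929, 6 lower and a median of 0.32 after and 0.22 before sorting. PFKP, the platelet form of phosphofructokinase, had 0.17 and 0.185 FPKM in H929, against 100.1 and 116 FPKM in KMS28BM, with a log2 difference of -6.53 (SE 0.40, adjusted p = 1.34e-15), while PFKL, the liver form, had 42.3 and 28.5 FPKM in H929, against 14.1 and 19.9 FPKM in KMS28BM, and was not called. HK1 was called higher, with 6.35 and 6.18 FPKM in H929, against 2.48 and 2.37 FPKM in KMS28BM, and HK2 lower, with 4.38 and 7.43 FPKM in H929, against 21.7 and 14.6 FPKM in KMS28BM. The hexokinases were called in opposite directions. ENO2, the neuronal enolase, had 2.38 and 1.96 FPKM in H929, against 22 and 26.9 FPKM in KMS28BM. BNIP3, a mitophagy receptor, had 0.0577 and 0.0941 FPKM in H929, against 19.2 and 14.6 FPKM in KMS28BM. GAPDH had 5933 and 4200 FPKM in H929, against 2023 and 2562 FPKM in KMS28BM, a difference of 1.13 (SE 0.36, adjusted p = 0.0186).

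Detoxification genes differed in which member was on. Of 25 listed 14 were measured (5 through H929 alone and 2 through KMS28BM alone), with 4 called higher, 2 lower and a median of 0.67 after and 0.44 before sorting. GSTP1, given above, was high in KMS28BM alone, whereas MGST1, a microsomal transferase, was high in H929, with 9.84 and 11.6 FPKM in H929, against 0.0115 and 0.0191 FPKM in KMS28BM, with a log2 difference of 3.52 (SE 0.40, adjusted p = 1.30e-08). GSTM3 was listed at the floor in both libraries of H929, against 1.91 and 2.43 FPKM in KMS28BM. MGST1 and GSTM3 were on in different lines. HMOX1, the heme-degrading enzyme, had 40.3 and 137 FPKM in H929, against 2.3 and 2.9 FPKM in KMS28BM. MGST3 had 6.23 and 5.69 FPKM in H929, against 1.84 and 2.25 FPKM in KMS28BM. Of 25 listed ABC transporters 17 were measured (3 through H929 alone and 1 through KMS28BM alone), with 5 called higher, 1 lower and a median of 0.58 after and 0.74 before sorting. ABCB10, a mitochondrial exporter, had 7.61 and 14.2 FPKM in H929, against 2.72 and 1.2 FPKM in KMS28BM. ABCC4, a drug and nucleotide exporter, had 2.33 and 2.58 FPKM in H929, against 0.491 and 0.245 FPKM in KMS28BM. ABCA3, a lipid transporter, had the floor and 0.00446 FPKM in H929, against 3.36 and 3.38 FPKM in KMS28BM. ABCB1, the multidrug exporter P-glycoprotein, was under 1 FPKM in every library.

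Cell cycle genes were called at shares below or near those of all genes (12.6% higher and 9.56% lower). Of 20 G1/S and replication genes, all measured, 1 was called higher (RRM2) and 1 lower (PCNA), with a median of -0.34 after and -0.21 before sorting. RRM2 shares 20.17% of its words with other genes and is uncertain. Of 20 G2/M genes 18 were measured, with 2 called higher (AURKB and KIF20A) and 0 lower, and a median of -0.12 after and 0.36 before sorting. AURKB, a mitotic kinase, had 43.2 and 19.4 FPKM in H929, against 12.2 and 9.83 FPKM in KMS28BM. MKI67, the proliferation marker, had 4.53 and 6.17 FPKM in H929, against 7.36 and 3.27 FPKM in KMS28BM, with overlapping libraries.

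Chromatin genes were called at shares not far from those of all genes (12.6% higher and 9.56% lower). All 21 listed Polycomb and histone methylation genes were measured (2 through H929 alone), with 4 called higher (BMI1, EZH1, PCGF2 and KDM6B), 1 lower (PCGF5) and a median of 0.09 after and 0.72 before sorting. BMI1, a Polycomb subunit whose transcript shares 21.3% of its words with another gene, had 22.1 and 112 FPKM in H929, against 4.0 and 0.807 FPKM in KMS28BM, with the H929 library before sorting far above the others. EZH2 had 15.2 and 18.4 FPKM in H929, against 14 and 8.15 FPKM in KMS28BM, and was not called. Of 25 listed HOX and homeobox genes 6 were measured (1 through H929 alone and 1 through KMS28BM alone), with 1 called higher, HOXB6, 0 lower and a median of -0.21 after and 0.18 before sorting. HOXB6 was low, with 1.23 and 1.5 FPKM in H929, against the floor in both libraries of KMS28BM.

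The cereblon ligase, through which thalidomide analogues act, held 1 call. Of 16 listed 15 were measured, with 1 called higher, CUL4A, 0 lower and a median of -0.07 after and 0.60 before sorting. CRBN, or cereblon, had 1.13 and 1.82 FPKM in H929, against 1.14 and 0.678 FPKM in KMS28BM, and its drug-induced substrates IKZF1 and IKZF3 had 4.14 and 4.86 FPKM in H929, against 5.67 and 3.98 FPKM in KMS28BM for IKZF1 and 7.13 and 13.9 FPKM in H929, against 6.75 and 4.4 FPKM in KMS28BM for IKZF3; none was called. Of 15 housekeeping genes, GAPDH was called higher and 1 gene lower, with a median of 0.16 after and 0.11 before sorting, a direction that turned under the trimmed-mean scaling and under removal of a GC and length trend.

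**Figure D4:**
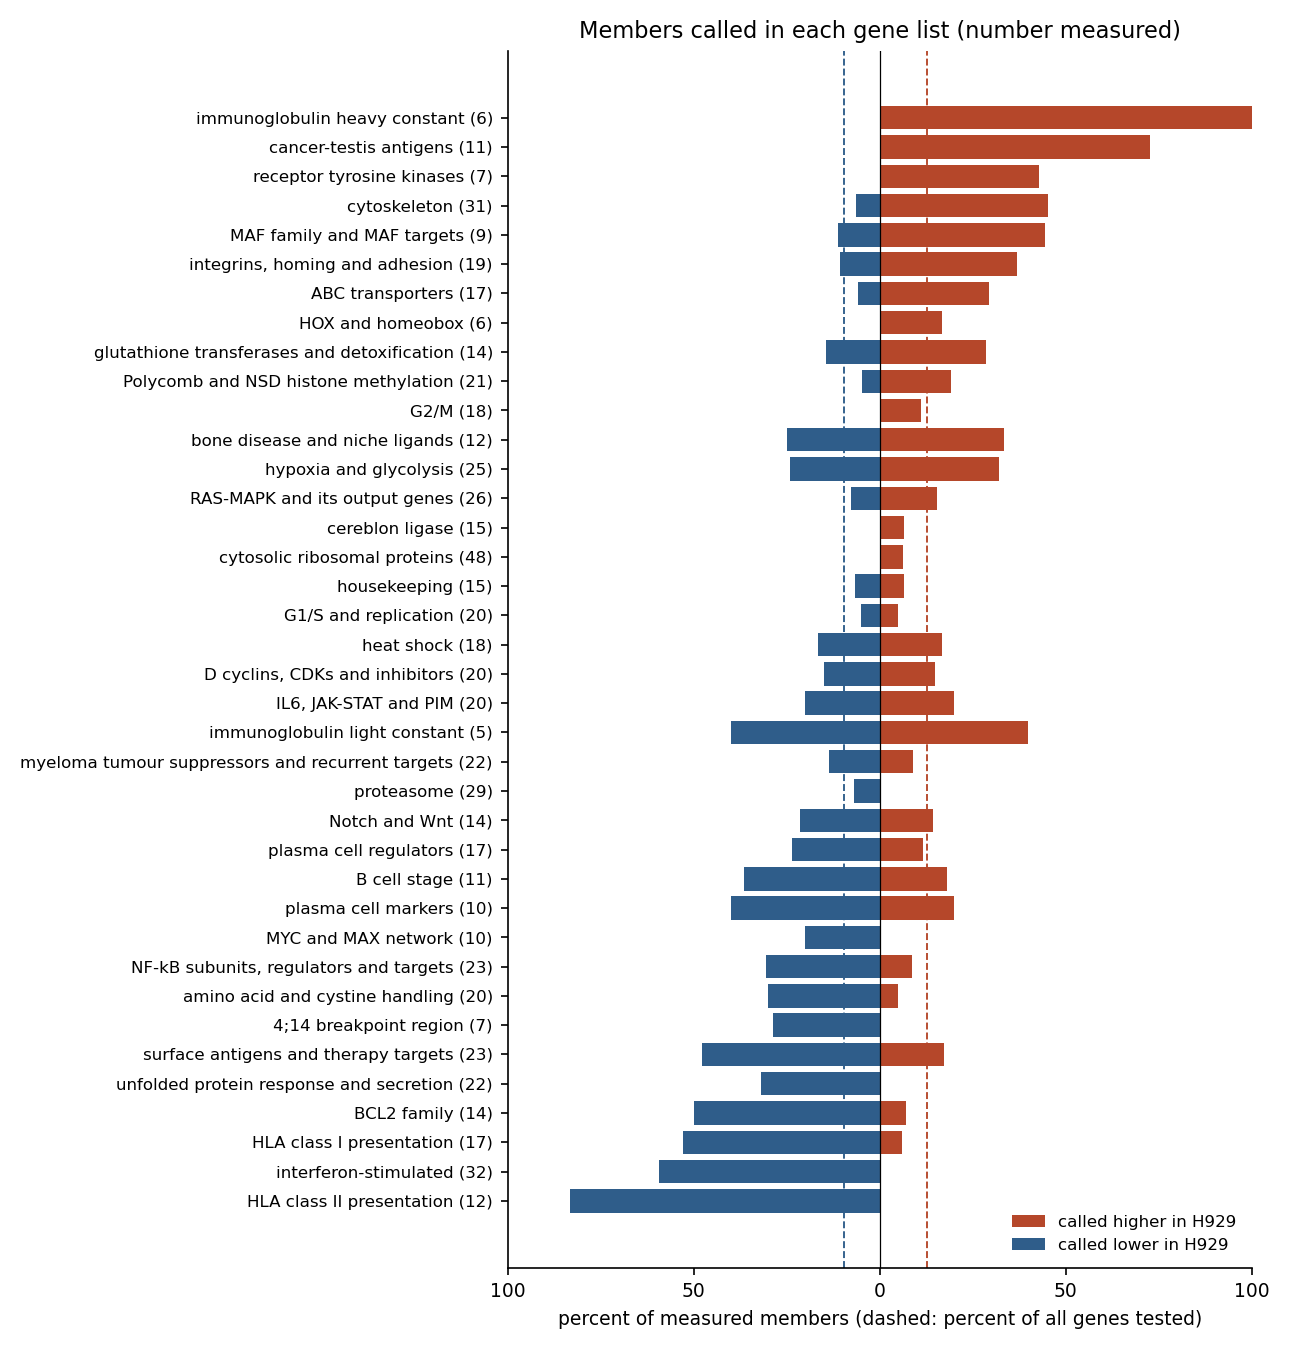
Percent of the measured members of gene lists called higher in H929 (bars to the right) and lower in H929 (bars to the left), with the background shares of 12.6% and 9.56% of all genes as dashed lines. HLA class II and interferon-stimulated genes reach far to the left, with 10 of 12 and 19 of 32 called lower, and cancer-testis and cytoskeleton genes to the right, with 8 of 11 and 14 of 31 called higher. These shares hold members that entered through 1 line alone and so had to differ, 6 of the 12, 14 of the 32 (through KMS28BM), 10 of the 11 and 4 of the 31 (through H929).

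A group of genes was on in 1 line and near 0 in the other. By a rule of at least 5 FPKM in both libraries of 1 line and under 0.1 FPKM in both of the other, 69 genes (0.561%) were restricted to H929, 61 of them protein-coding, and 68 (0.553%) to KMS28BM, 63 of them protein-coding. The rule itself used these values. Promoter windows of the genes restricted to H929 held at least 20 CG per 300 bases in 26 of 74 windows (35.1%, 47 genes), and those of genes restricted to KMS28BM in 37 of 62 (59.7%, 44 genes), against 41.2% of all windows and 68.3% of windows of genes at 1 FPKM or more. The median number of CG was 16 in the H929 set and 22.5 in the KMS28BM set, against 14 and 26 in those backgrounds.

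The restricted genes lay on many chromosomes, with a lone run of at least 3 neighbours, GTSF1, PDE1B and PPP1R1A on chromosome 12, all on in H929. GTSF1, a germ cell factor of piRNA silencing, had 14.8 and 12.6 FPKM in H929, against the floor and 0.018 FPKM in KMS28BM. PDE1B, a phosphodiesterase, had 6.11 and 6.92 FPKM in H929, against 0.00865 and 0.0635 FPKM in KMS28BM. PPP1R1A, a phosphatase inhibitor, had 14.3 and 15 FPKM in H929, against 0.0197 FPKM and the floor in KMS28BM. Neighbours were taken among protein-coding genes at 5 FPKM or more in some library, so other genes between them were skipped.

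Whole chromosomes differed in their median. Over 6009 protein-coding genes with some library at 5 FPKM or more, the median log2 line difference was 0.01 after and 0.07 before sorting, with 15.1% called higher in H929 and 11.9% lower. Chromosome 8 had medians of -0.69 and -0.53 over 168 genes, with 8.93% called higher and 30.4% lower. Chromosome 9, with medians of -0.38 and -0.31, and chromosome 20, with -0.30 and -0.35, lay on the same side, with 19.0% and 19.1% of genes called lower. Chromosome 13 had medians of 0.52 and 1.41 over 66 genes, with 40.9% called higher, and chromosome 22 had 0.86 and 0.51 over 181 genes, with 34.8% called higher. Chromosome 18 was at -0.83 after sorting and 0.05 before it, so its states did not match. RB1 lies on chromosome 13. With a trend in GC content and length removed, an alternative added after seeing the data, chromosome 8 stood at -0.59 and -0.56, 13 at 0.79 and 1.05, and 22 at 0.73 and 0.46. No copy number was measured here.

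**Figure D5:**
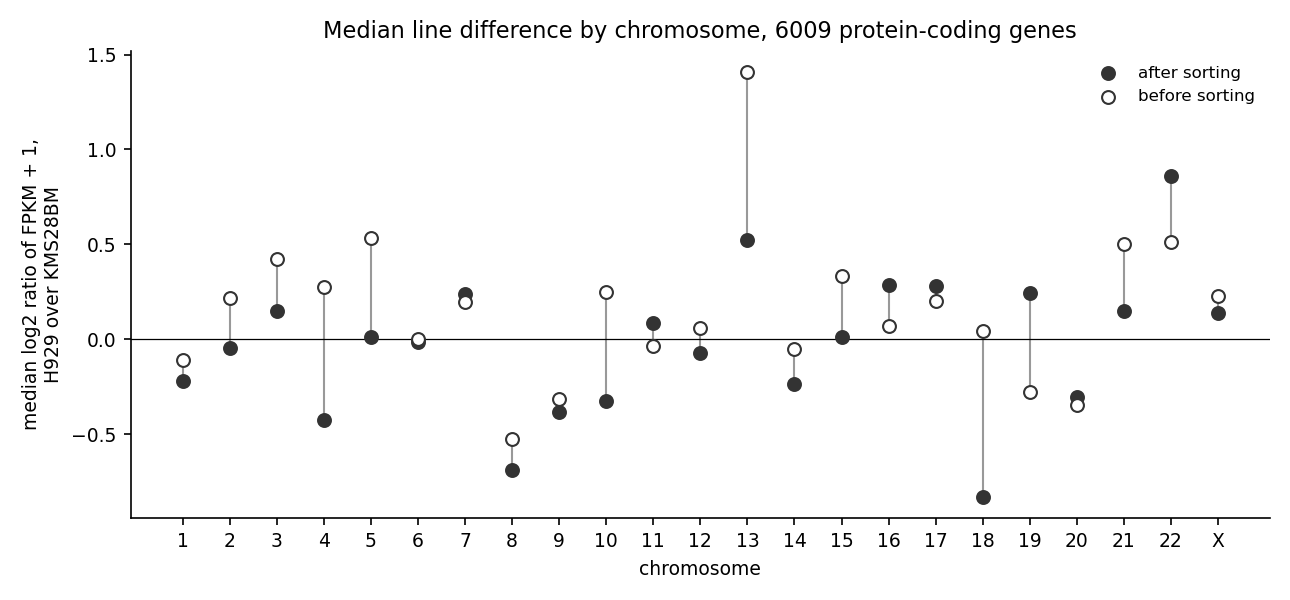
Median log2 ratio of FPKM + 1 in H929 over KMS28BM per chromosome, after and before sorting, over the 6009 protein-coding genes with some library at 5 FPKM or more. Chromosomes 8, 9 and 20 lie below 0 and chromosomes 13 and 22 above 0 in both states, while chromosome 18 has medians of -0.83 after and 0.05 before sorting.

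Among the 3706 genes whose line difference changed sign between states, the 5 largest by the smaller size were AL662884, RPL13AP7, AC245060, ZNF146 and PDIA3P1. All but ZNF146 share over 20% of their words with other genes, and RPL13AP7 and PDIA3P1 are pseudogenes. AL662884, which shares 91.8%, had the floor and 34.1 FPKM in H929, against 27.8 FPKM and the floor in KMS28BM, 1 library of each line being at or near the floor. ZNF146, a zinc finger gene, had 0.105 and 3.8 FPKM in H929, against 5.43 and 0.336 FPKM in KMS28BM. In each of these genes the lines overlapped, and no line difference was called.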

How the data were processed

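RNA was extracted with Trizol, its polyadenylated part taken on oligo-dT beads, fragmented and read as paired ends, per the labels' protocols. The authors deposited 1 table of FPKM values per line, with the same 60612 human Ensembl gene IDs, per the file headers; genes without signal are listed at a floor of 0.0001 FPKM. Bowtie 0.12.2, HISAT2 2.0 and StringTie 1.3.0 are named in the submitters' processing notes, which also name the mouse build mm8; which human build and annotation were used is not given in these sources. FPKM are not counts, so no count model was used. Such estimates divide reads between similar genes, and a gene sharing over 20% of its 50-base transcript words with others in GENCODE release 29 is called uncertain. Each line term was tested with limma 3.58.1 (R 4.3.3) on log2(FPKM + 1) with moderated spread and a trend, for the 12294 genes that reached 1 FPKM in some library, and the procedure was tested on simulated data. Promoter windows came from RefSeq (GRCh38.p14), matched by symbol. Depth, read from the steps of low values, sets the precision of low genes.

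Named genes are the 5 line markers, the 15 highest and 15 lowest genes by the smaller of the states' log2 ratios (protein-coding or immunoglobulin constant genes at 5 FPKM or more in the higher line), up to 4 members at each end of each list, and the 5 largest with opposite signs; other list members are examples chosen after their values were seen. The members and the gene lists were chosen with earlier results of these data known, so they support nothing independently. Alternatives covered the pseudocount, the filter, the scaling, the model and leaving out each library. Python 3.11.15, numpy 2.4.6, pandas 2.3.3 and matplotlib 3.10.9 were used. XIST, Y-linked genes and some other genes and lists are not reported here.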

Additional observations from a re-analysis of the deposited data

Results flagged for a closer look

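In 3706 genes the line difference pointed one way after sorting and the other way before sorting, with 1 library per line and state. The 5 largest by the smaller size of the states' log2 ratios are given here. The log2 ratio of H929 over KMS28BM was -4.846 after and 5.132 before sorting for AL662884, 3.741 and -3.922 for RPL13AP7, -2.421 and 2.077 for AC245060, -2.54 and 1.846 for ZNF146, and -1.558 and 2.623 for PDIA3P1. The difference between the states was not tested, and 4 of the 5 genes, all but ZNF146, are uncertain because they share transcript words with other genes.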

How the results depend on the processing

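The number of genes called higher in H929 (1548) and lower (1175) became 320 and 258 with no filter on low values, where many more genes share the adjustment. Rescaling to genes outside immunoglobulin and mitochondrial genes gave 781 lower. Leaving out 1 library, with line as the only term and the spread taken from the other line, gave between 0 and 1020 higher and between 0 and 515 lower calls; the fit without KMS28BM after sorting called 0 genes by limma, with 3319 at an unadjusted p under 0.05. Of the 2-fold genes (1179 higher and 878 lower), a pseudocount of 0.1 gave 1905 and 1327, one of 5 gave 421 and 346, and 5 FPKM as the minimum left 567 lower. A 1.5-fold limit gave 2192 and 1683, and a 4-fold limit 311 and 255. Genes with the same direction (8565) numbered 15951 with no filter and 4889 at 5 FPKM. Genes restricted to H929 and to KMS28BM (69 and 68) numbered 140 and 159 at 2 FPKM against 0.1, and 123 and 117 at 5 FPKM against 0.5. Of these changes the cause was not tested, apart from fewer libraries or other limits. List medians changed sign for interleukin 6 genes at -0.0952 with the GC and length trend removed, for niche ligands at 0.2415 with 5 FPKM as the minimum, for Notch and Wnt genes at -1.0567 and -0.2008 under those settings, and for housekeeping genes at -0.0134 with the trimmed mean and -0.0308 with the trend removed. The trimmed mean divides each library by a factor. On the log2 scale the factor of H929 over KMS28BM was -0.14 after and 0.43 before sorting. Line differences shift by as much in the other direction. The rescaling multiplies instead and shifts them by 0.01 and 0.19. Of the 188 called genes that the naming rule picks, none changed direction in a fit that held it. Between 3 and 30 lost the call under scaling, pseudocount, trend and model alternatives, and 99 with no filter. With 5 FPKM as the minimum 156 kept the call and 1 lost it, the rest not being in that fit. Fits without 1 library kept a lone library of its line, so their lost calls are not given. The model already compares the lines within each sorting state; without the state term 3218 genes were called in all, 2477 of them shared. The labels carry no replicate numbers to pair on.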

Other observations

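The genes restricted to 1 line, described here from their values with no test, include genes the lists did not hold; those named were picked after their values were seen. Genes on in H929 alone included several known from lymphocytes. LCP2, an adaptor of antigen receptor signalling, had 15.7 and 14.6 FPKM in H929, against 0.0613 and 0.0467 FPKM in KMS28BM. DOCK2, which drives lymphocyte migration, had 11.4 and 11.6 FPKM in H929, against 0.00325 and 0.02 FPKM in KMS28BM. Both were under 0.1 FPKM in KMS28BM. IL2RB, a chain of the interleukin 2 and 15 receptors, had 28.8 and 25.5 FPKM in H929, against the floor and 0.0274 FPKM in KMS28BM. S1PR4, a sphingolipid receptor of lymphocytes, had 28.9 and 24.2 FPKM in H929, against 0.0743 and 0.084 FPKM in KMS28BM. ACAP1, an endocytic recycling protein, had 26.7 and 28.2 FPKM in H929, against 0.028 and 0.0164 FPKM in KMS28BM. The last 3 genes were over 20 FPKM in each H929 library. PIK3CG, a leukocyte PI3 kinase, had 5.51 and 8.42 FPKM in H929, against 0.0165 and 0.0363 FPKM in KMS28BM. FCMR, the IgM receptor, had 10.2 and 14.3 FPKM in H929, against 0.0876 and 0.0628 FPKM in KMS28BM. KMS28BM was under 0.1 FPKM in these genes too. PPARG, a nuclear receptor best known from fat cells, had 15.7 and 17.4 FPKM in H929, against 0.0657 and 0.0208 FPKM in KMS28BM. TNFRSF8, or CD30, had 11.5 and 6.78 FPKM in H929, against 0.0112 and 0.0248 FPKM in KMS28BM. In each of these genes the H929 libraries were at least 5 FPKM. Genes known from lymphocytes were also among those on in KMS28BM alone. STAP1, an adaptor of B cells, had the floor in both libraries of H929, against 31.4 and 15.6 FPKM in KMS28BM. CCL19, a chemokine that draws lymphocytes, had the floor in both libraries of H929, against 7.52 and 5.94 FPKM in KMS28BM. CD40, given above, was restricted to KMS28BM too.

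Some genes on in KMS28BM alone are best known from epithelium. ELF3, an epithelial ETS factor, had 0.0571 and 0.0494 FPKM in H929, against 28.3 and 32.1 FPKM in KMS28BM. ST14, the membrane protease matriptase, had 0.0395 and 0.0635 FPKM in H929, against 28.2 and 32.5 FPKM in KMS28BM. Both were under 0.1 FPKM in H929. ESRP1, an epithelial splicing factor, had 0.0132 and 0.0165 FPKM in H929, against 13.4 and 7.68 FPKM in KMS28BM. KLF4 had 0.0353 and 0.011 FPKM in H929, against 12.3 and 14.3 FPKM in KMS28BM. Of these 4 genes, ESRP1 varied most between the states of KMS28BM. SOX2, a stem cell factor, was listed at the floor in both libraries of H929, against 10.7 and 6.89 FPKM in KMS28BM. No fold is given for it. Genes best known from neurons and endocrine cells were on as well: KIF1A, an axonal motor, had 0.0128 and 0.00433 FPKM in H929, against 20.2 and 18.5 FPKM in KMS28BM. CPE, a prohormone protease, had 0.0273 FPKM and the floor in H929, against 20.3 and 12.6 FPKM in KMS28BM. BEX2 had the floor and 0.0355 FPKM in H929, against 36.2 and 25.8 FPKM in KMS28BM. EPCAM and KRT19, which define epithelium, stayed under 1 FPKM in all 4 libraries, and KRT8, another epithelial marker, was called the other way, with 1.76 and 2.22 FPKM in H929, against 0.0398 and 0.0199 FPKM in KMS28BM.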
